A study of Mus musculus with 860 samples.

Results

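Cluster 2 was the group of cells that the submitters' cell annotation numbers Louvain cluster 2, taken as given and matched by library name to the deposited counts. It held 53 E10.5 and 56 E11.5 cells, which together made 14.1% of the 775 cells that passed the submitters' quality control (E10.5 and E11.5 are embryonic days), and it is compared here with the 552 cells of clusters 0, 1, 3, 4 and 5. The cells came from the aorta-gonad-mesonephros region (AGM) of mouse embryos of the Gfi1:tomato line on a CD1 background, at E10.5 or E11.5, and every group, comparison cells included, came from this reporter line. Each cell was index sorted, that is, its fluorescence was recorded as it was sorted, from pooled AGMs through 1 of 3 gates: GFI1+ HE (CD31+ cKIT- with the reporter), GFI1+ IAHC (CD31+ cKIT+ with the reporter) and GFI1- IAHC (CD31+ cKIT+ without it). No single embryo can be traced, so cluster 2 counts as 1 sample in each batch. No test between groups of cells was possible, and all differences are given as descriptions with their spread over batches.

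In the midgestation embryo, haemogenic endothelium (HE) in the floor of the dorsal aorta gives rise to blood cells by an endothelial-to-haematopoietic transition. The emerging cells collect in intra-aortic haematopoietic clusters (IAHC), which contain the precursors of haematopoietic stem cells (HSC). Notch receptors and ligands, signalling proteins of neighbouring cells, are known to act in both the arterial wall and these clusters.

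Of these cells, 81 had been sorted as GFI1+ IAHC, 18 as GFI1+ HE and 10 as GFI1- IAHC. Cluster 2 took up 36.2% of the E10.5 GFI1+ IAHC cells (42 cells, 95% exact binomial interval 27.5 to 45.6%) and 16.2% of the E11.5 GFI1+ IAHC cells (39 of 240, 11.8 to 21.5%). It also held 10.1% of the E10.5 GFI1+ HE cells (11 cells), 4.07% of the E11.5 GFI1+ HE cells (7 cells) and 7.41% of the E11.5 GFI1- IAHC cells (10 cells). The sort gates set how many cells of each kind were sequenced, so these are shares of sorted cells and not of the AGM, and all intervals cover counting error only.

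The 2 batches with at least 10 cells on each side were GL53, with 28 cells of cluster 2 and 43.5% of the comparison cells, and GL78, with 68 cells of cluster 2 and 43.7% of the comparison cells. All 28 cells from GL53 were E11.5, whereas GL78 contributed 45 E10.5 and 23 E11.5 cells, so batch and stage are partly confounded. Depth was alike, with a median of 715266 counts per cell in cluster 2 and 753122 in the comparison cells. Within cluster 2 the E10.5 cells were deeper (848596 against 611006 counts) and had a lower median mitochondrial share (1.22% against 2.65%) than the E11.5 cells, and the part of either in the differences by stage was not tested. In the comparison, 3 cells (from clusters 0, 1 and 5) had under 100 counts per 1e6 counts (CPM) of pan-endothelial genes in sum and at least 6284 CPM of leukocyte genes. Without them 686 genes were counted as higher and 906 as lower.

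The name of the cluster was checked against its 5 given markers, and the clusters were themselves made from these RNA values, so the marker levels describe the cluster and test nothing. Coro1a, an actin-binding protein of leukocytes, was at 1201 CPM in GL53 and 865.8 CPM in GL78, against 9.81 and 20.8 CPM in the comparison cells. Laptm5, a lysosomal membrane protein of blood cells, was at 775.6 and 547.4 CPM against 51 and 64.5 CPM. Rac2, a haematopoietic small GTPase, was at 934.5 and 461.9 CPM against 1.38 and 2.03 CPM. All 3 genes were above every comparison cluster in both batches, and the nearest was cluster 4 for Laptm5, at 202.9 and 197.2 CPM.

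Adgrg1, an adhesion receptor also known as GPR56, was at 643.7 CPM in GL53 and 643.4 CPM in GL78, against 18.1 and 21.4 CPM. Spi1, which encodes the transcription factor PU.1, had a mean of 254.9 CPM over the batches, against 0.507 and 1.09 CPM. Single cells spread widely: Spi1 ranged from 0 to 1036 CPM in cluster 2 with a median of 226.9 CPM, and reads were present in 93.6% of the cells against 7 of 552. Rac2 had reads in 78 cells and Adgrg1 in 90, so neither was found in every cell, while Laptm5 was found in all of them.

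**Figure D1:**
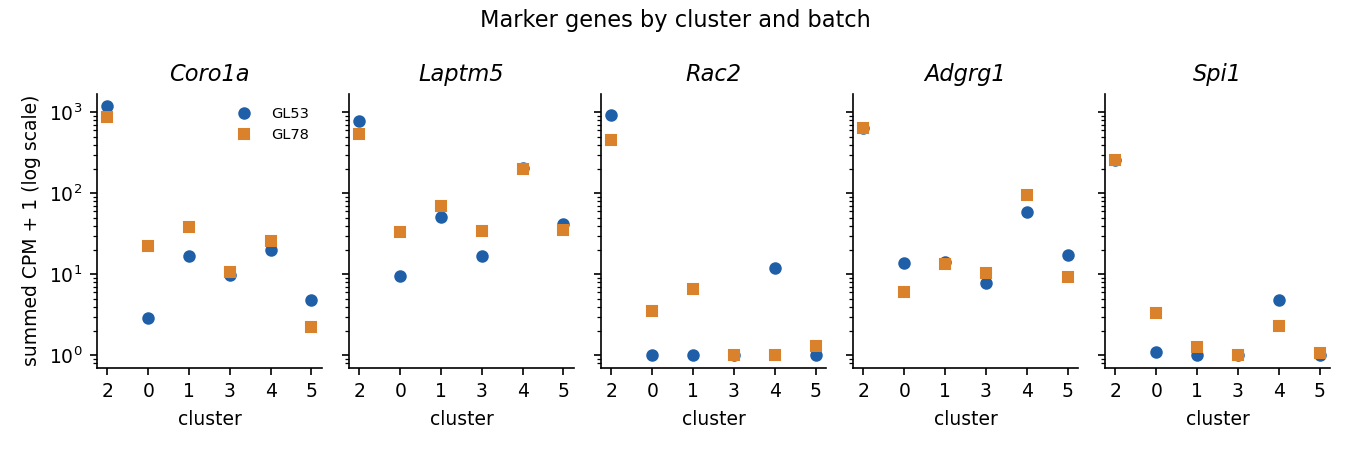
Summed CPM plus 1 (log axis) of the 5 marker genes in cluster 2 and in each comparison cluster, one point per batch (circles GL53, squares GL78). In every panel both points of cluster 2 lie above those of clusters 0, 1, 3, 4 and 5; for Adgrg1 the next highest are those of cluster 4, at 58.4 and 95.3 CPM.

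The upstream sequences of the markers are shown because these genes define the cluster. RefSeq promoter windows (GRCm38.p6, which shares its coordinates with the mm10 build of the files) were found for 3 of the 5 markers, Coro1a, Laptm5 and Adgrg1, and Rac2 and Spi1 are named only. The 250 bases before the first listed start lie at chr7:126704817-126705066 (minus strand) for Coro1a, chr4:130913066-130913315 (plus strand) for Laptm5 and chr8:94976859-94977108 (plus strand) for Adgrg1. They were searched on both strands for GAGGAAGT, the letters used for a PU.1 motif. The letters used for a RUNX motif, the family of Runx1, were TGTGGT. For a motif of the GATA factors, which include Gata2, the letters AGATAA were used. No motif contains another, and none of the 3 was found in these windows, which says only that these letters are not there.
Coro1a: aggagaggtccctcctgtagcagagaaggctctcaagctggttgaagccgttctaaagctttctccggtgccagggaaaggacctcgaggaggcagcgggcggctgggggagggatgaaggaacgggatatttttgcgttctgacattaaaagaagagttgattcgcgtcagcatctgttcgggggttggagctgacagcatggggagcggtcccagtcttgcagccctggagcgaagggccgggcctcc
Laptm5: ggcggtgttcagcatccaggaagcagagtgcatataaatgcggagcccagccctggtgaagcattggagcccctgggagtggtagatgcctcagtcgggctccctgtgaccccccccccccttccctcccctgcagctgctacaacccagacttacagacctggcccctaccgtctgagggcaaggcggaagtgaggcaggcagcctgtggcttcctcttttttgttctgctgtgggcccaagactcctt
Adgrg1: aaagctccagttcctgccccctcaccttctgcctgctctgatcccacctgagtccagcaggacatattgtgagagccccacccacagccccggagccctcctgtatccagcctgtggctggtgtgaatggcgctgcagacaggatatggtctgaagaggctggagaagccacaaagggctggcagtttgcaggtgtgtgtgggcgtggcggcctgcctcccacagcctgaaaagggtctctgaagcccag

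The PU.1 letters were present in 2.79% of 27025 genes with a promoter window and in 3.03% of 7187 genes that could be counted in the comparison below. They were present in 7.75% of the 516 genes counted as higher in cluster 2 that had a window and in 2.95% of the 678 counted as lower. The RUNX letters were present in 14.1% and 14.9% and the GATA letters in 8.72% and 6.64% of the same gene sets, against 12.3% and 6.51% of the genes that could be counted. Of 29 leukocyte genes with a window, 6 held the RUNX letters (20.7%), 5 the GATA letters (17.2%) and 4 the PU.1 letters (13.8%). The 4 windows with the PU.1 letters are printed, chosen after their matches were seen, with the motif in capitals. They lie at chr17:57278850-57279099 (plus strand) for Vav1, a guanine exchange factor of blood cells, chr1:87620062-87620311 (plus strand) for Inpp5d, the SHIP1 phosphatase, chr7:45238840-45239089 (minus strand) for Cd37, a leukocyte tetraspanin, and chr1:193201547-193201796 (minus strand) for Traf3ip3. The match begins 11, 20 and 25 bases before the start in Vav1, Inpp5d and Cd37. Traf3ip3 holds the letters once 32 bases before its start and once farther upstream. A match describes the letters and is not evidence of binding.
Vav1: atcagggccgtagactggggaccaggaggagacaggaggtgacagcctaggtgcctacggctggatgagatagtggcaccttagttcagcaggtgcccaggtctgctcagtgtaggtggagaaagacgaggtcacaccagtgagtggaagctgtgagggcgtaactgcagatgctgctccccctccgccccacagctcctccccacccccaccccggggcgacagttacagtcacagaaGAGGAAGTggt
Inpp5d: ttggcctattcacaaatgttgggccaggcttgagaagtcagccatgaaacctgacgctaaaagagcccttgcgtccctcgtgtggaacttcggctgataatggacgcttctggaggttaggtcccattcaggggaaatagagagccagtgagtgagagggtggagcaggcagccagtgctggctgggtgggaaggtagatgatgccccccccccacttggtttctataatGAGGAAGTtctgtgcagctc
Cd37: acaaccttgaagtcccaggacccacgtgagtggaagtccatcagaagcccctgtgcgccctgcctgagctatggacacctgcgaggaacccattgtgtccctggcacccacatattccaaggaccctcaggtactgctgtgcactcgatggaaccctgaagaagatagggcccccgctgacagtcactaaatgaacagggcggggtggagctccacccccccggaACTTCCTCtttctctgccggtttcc
Traf3ip3: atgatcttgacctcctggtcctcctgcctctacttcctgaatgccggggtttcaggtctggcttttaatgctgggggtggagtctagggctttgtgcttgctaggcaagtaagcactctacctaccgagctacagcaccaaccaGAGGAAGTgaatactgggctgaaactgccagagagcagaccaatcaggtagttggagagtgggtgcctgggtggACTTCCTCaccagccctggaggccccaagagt

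Against clusters 0, 1, 3, 4 and 5, 681 of 9099 genes were counted as higher in cluster 2 (7.48%) and 903 as lower (9.92%). A gene was counted when it was at least 2-fold different in both batches, with at least 10 CPM and reads in at least 25% of the cells on the higher side. Ratios are log2 of CPM plus 1, averaged over the batches, with the SD over 2 batches. The median ratio of all 10356 genes at 10 CPM or more was 0.13, and list medians are read beside that shift.

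The 14 genes with the largest smallest-batch ratio included Cd69, Ifitm1 and Mpo. Cd69, an early activation antigen, was at 375.7 and 246.1 CPM, against 0.0122 CPM (2 counts) in GL53 and no counts in GL78, where it was at least 16220-fold higher by a floor of 3 counts. Ifitm1, an interferon-induced membrane protein, was at 1150.0 and 859.1 CPM against 3.23 and 4.35 CPM (log2 ratio 7.71 ± 0.54), and among the comparison clusters it was highest in cluster 4, at 16.2 and 25.3 CPM. Mpo, the myeloperoxidase of neutrophil granules, was at 773 and 444.9 CPM against 0.623 and 2.25 CPM (8.00 ± 1.27), and Prtn3, a granule protease, reached 206.9 and 154.4 CPM. Runx3, Tespa1 and Rab44 had no counts in either batch of the comparison cells and had means over the batches of 166.5, 144.6 and 103.8 CPM in cluster 2.

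The other leading genes were Cd52, Plac8, Ikzf1, Tyrobp, Selplg, Rac2 and Spi1. Ikzf1, a zinc finger regulator of lymphoid development, was at 337.5 and 181.6 CPM against 1.28 and 0.546 CPM. Tyrobp, an adaptor of activating receptors, was at 548.3 and 287.3 CPM against 2.44 and 1.82 CPM. Over all 14 genes named by size, the mean ratio ran from 6.65 to 8.24, and the counting interval was at most 4.24% of the CPM to either side.

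As a group, the leukocyte signalling and cytoskeleton genes had a median ratio of 5.28 (5.80 in GL53 and 4.85 in GL78), and 35 of 40 were counted as higher and 0 as lower. The lowest was Lyn, a Src family kinase, at -0.24 ± 0.32. The haematopoietic transcription factors had a median of 2.77 over 25 members at 10 CPM or more, with 12 higher and 0 lower. Runx1, which is needed for the endothelial-to-haematopoietic transition, was at 205.6 and 224.9 CPM against 2.13 and 7.48 CPM (5.39 ± 0.93). Myb, a regulator of definitive progenitors, was higher too (6.28), whereas the vascular and blood factors Fli1 (-0.89) and Erg (-0.49) were not counted as changed.

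**Figure D2:**
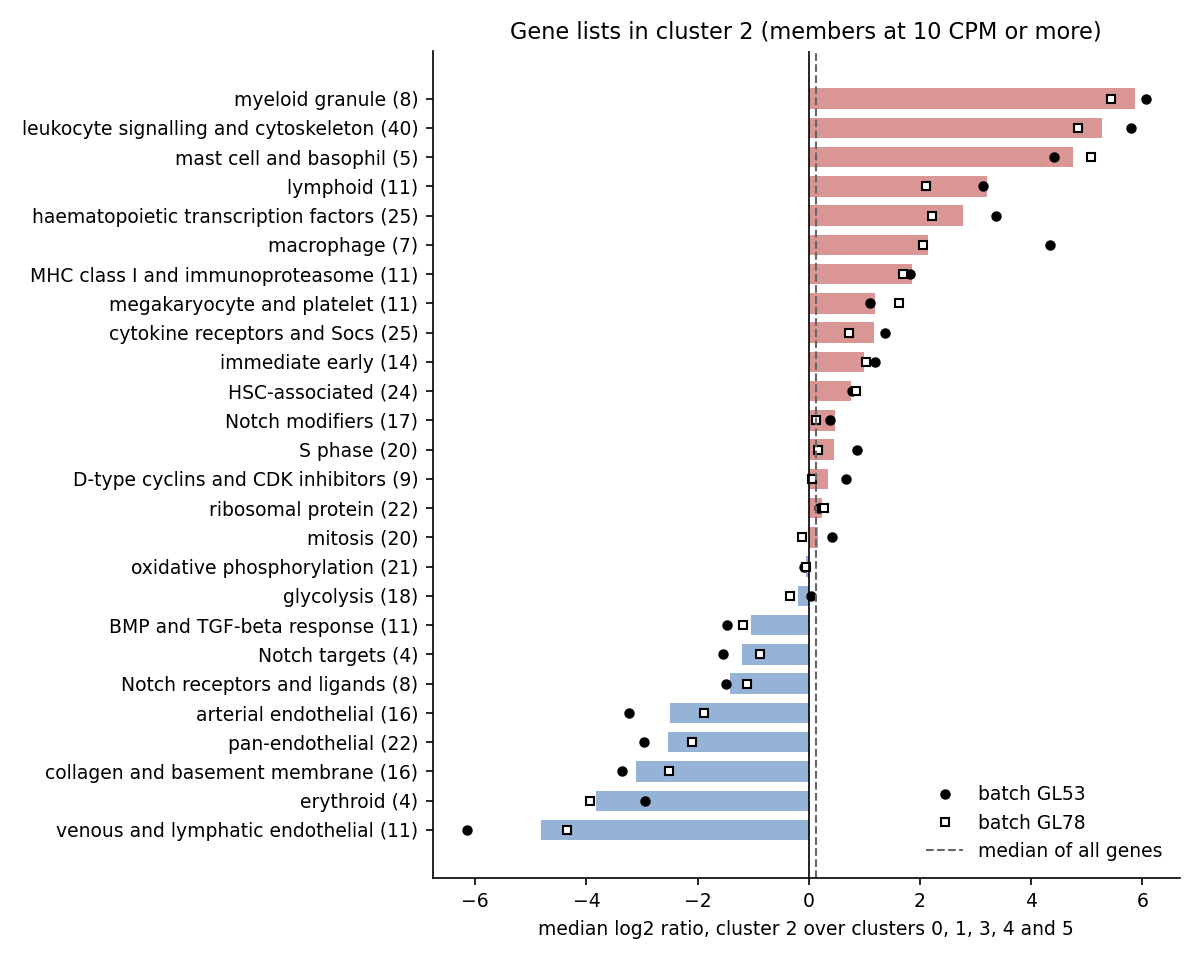
Median log2 ratio of cluster 2 over clusters 0, 1, 3, 4 and 5 for each gene list, other than the 5 markers, with at least 4 members at 10 CPM or more (bars; number of members in brackets), with the median in GL53 (filled circles) and GL78 (open squares) and the median of all genes (dashed line, 0.13). Among these lists, myeloid granule and leukocyte genes are highest, at 5.87 and 5.28, and venous and lymphatic endothelial genes lowest, at -4.82.

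Genes of several blood lineages were present side by side, each in part of the cells. Of the 8 myeloid granule genes at 10 CPM or more, 5 were higher and 0 lower (median 5.87), whereas Elane, neutrophil elastase, had reads in 5 cells. Of the lymphoid list, 3 of 11 members were higher and 1 lower (median 3.21). Flt3, a receptor of lymphoid and myeloid progenitors, was at 159.5 and 61.2 CPM against 0.0306 and 0.0404 CPM, and Ccr9, a chemokine receptor of early lymphoid cells, had a mean of 105.3 CPM (6.42 ± 0.74) but reads in 18 cells. Lck was the lower one (-1.51 ± 0.50), and Ebf1, a B cell factor, had a ratio of -3.38 with an SD of 3.44.

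Cpa3 and Hdc, a protease and the histamine-making enzyme of mast cells and basophils, had means of 336.4 and 787.5 CPM over the 2 batches. Reads were present in 26 and 25 of the cells, and the protease genes Tpsab1, Tpsb2, Mcpt8 and Cma1 had reads in 0, 1, 1 and 2 cells. Of the megakaryocyte list, 3 of 11 members were higher and 1 lower (median 1.19). Itgb3, an integrin of platelets, had a ratio of 3.11 ± 0.63, and Clec1b, a platelet and endothelial lectin, was lower (-5.26 ± 1.86).

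Of the macrophage list, 2 of 7 members were higher, Lyz2 (6.03 ± 0.06) and Apoe, and 0 lower. The median was 2.14 (4.34 in GL53 and 2.06 in GL78), and the summed level was 1662 CPM against 335.1 CPM. Macrophage genes differed in detection: C1qa, C1qb and C1qc had reads in 3, 6 and 7 cells and Timd4 in 0. Cx3cr1 had reads in 23 cells, at 62.7 CPM in GL53 and 27.2 CPM in GL78. Its level was at most 15.5 CPM in any comparison cluster. Csf1r was at 78.6 CPM at E11.5 and 17.2 CPM at E10.5 in GFI1+ IAHC cells of cluster 2 in GL78. Of 14 erythroid genes only 4 reached 10 CPM, the globin genes Hba-x and Hbb-bh1 had no counts in cluster 2, and Tfrc, the transferrin receptor, was higher (1.79 ± 0.86). The mesenchymal genes Col3a1, Dcn and Lum and the coelomic gene Wt1 had no counts. Acta2, smooth muscle actin, had reads in 27 cells (80.3 CPM over both batches against 13.6 CPM). Its level in cluster 2 was 10.57 CPM in GL53 and 150.1 CPM in GL78. This level was shared with cluster 4, at a mean of 84.98 CPM (log2 ratio of cluster 2 over 4, -0.06). The mean was at most 2.83 CPM in clusters 0, 1, 3 and 5. In GFI1+ IAHC cells of cluster 2 in GL78, Acta2 was at 247.3 CPM at E10.5 and without counts at E11.5.

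The genes associated with HSC moved unevenly: 9 of 24 were counted as higher and 2 as lower, with a median of 0.76. Hlf, a transcription factor of HSC, was at 89.6 and 41.1 CPM against 0.965 and 0.688 CPM (5.08 ± 0.63). Kit, the stem cell factor receptor, was at 479 and 481.5 CPM against 113.1 and 77.1 CPM, although cKIT protein was used in the sort gates. Cd27 (4.42 ± 1.24), Angpt1 (4.31 ± 0.24), Msi2 (1.77 ± 0.58), Hmga2 (1.73 ± 0.52), Lin28b (1.38 ± 0.31) and Adgrg1 were among the other higher members. Esam (-1.68 ± 0.37), a junction protein, and Hoxa5 (-1.26 ± 0.01) were the lower ones.

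Mecom, Mllt3 and Procr, which mark HSC and their endothelial precursors, were not counted in either direction, with ratios of -0.74 ± 0.48, 0.96 ± 0.06 and 0.66 ± 0.07. All 3 were lower in cluster 2 than in cluster 4, the comparison cluster in which they were highest. Within the GFI1+ IAHC gate (E10.5 in GL78, E11.5 in GL53 and E11.5 in GL78), the ratios of cluster 2 over the comparison cells were 1.82, 1.88 and 1.30 for Mllt3, 1.08, 0.05 and -1.13 for Mecom, and 1.48, 0.68 and -1.34 for Procr, so Mllt3 was at least 2-fold higher in all 3 and the other two changed direction with stage and batch. Mecom was at 81.4 and 72.5 CPM in cluster 2 and at 681.7 and 380.9 CPM in cluster 4, a log2 ratio of -3.05 in GL53 and -2.38 in GL78. Mllt3 was at 107.9 and 59.3 CPM against 277.8 and 130.2 CPM, and Procr, the endothelial protein C receptor, had log2 ratios of -0.71 and -0.83. Hlf went the other way, with 6.73 and 3.60 CPM in cluster 4, and Hoxa9 differed little (92.4 and 101.7 CPM against 100.7 and 93.5 CPM). Ly6a, the gene of the SCA1 antigen, was at 24.1 and 7.02 CPM and not counted.

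Endothelial genes were lower as a group. Of 22 pan-endothelial genes 20 were counted as lower and 0 as higher, with a median of -2.52 (-2.97 in GL53 and -2.10 in GL78). Cdh5, VE-cadherin, was at 165.8 and 148.2 CPM against 1213 and 616.9 CPM (-2.46 ± 0.58), Pecam1, the gene of CD31, at 313.8 and 214.2 CPM against 1331 and 931.1 CPM, and Kdr, the VEGF receptor, at 79.7 and 64.8 CPM against 1195 and 855.5 CPM. These genes were lower but present in both batches, although Cdh5 and Kdr had no counts in E11.5 GFI1+ IAHC cells of cluster 2 in GL78. Of the venous and lymphatic genes 8 of 11 were lower (median -4.82), and some of them led the lower list. Ephb4, a venous member, was still at 50.9 CPM at E10.5 and at 26 CPM at E11.5 in GL53 in the GFI1+ IAHC gate.

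Aplnr, the apelin receptor, was at 0.0568 CPM in GL53 and without counts in GL78, against 1169 and 873.6 CPM, which is at least 14890-fold lower in GL78. Low Aplnr was shared with cluster 4, at 0.145 and 13.2 CPM with reads in 7.9% of its cells. Nr2f2, a venous transcription factor, was at 97.8 and 60.5 CPM in the comparison cells and at 0.0568 CPM and no counts in cluster 2. Stab2, a scavenger receptor of sinusoidal vessels, Cav1, a caveolar protein, Apold1, Plpp3, Pcdh12, Piezo2, Sparcl1, Adam19, Lhx6 and Tmem255a were the other lower genes named by size, with ratios between -9.94 and -6.03 over all 12. Of 16 collagen and basement membrane genes 13 were lower (median -3.10), and of 11 genes of the BMP and TGF-beta response 5 were lower, led by Bmp4 (-4.70 ± 1.26).

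Arterial genes were lower as well, with 7 of 16 counted (median -2.49), and the Notch genes, several of which are arterial, differed in direction between members. Of 8 Notch receptors and ligands at 10 CPM or more 3 were lower and 1 higher (median -1.41). Dll4 was at 9.66 and 39 CPM against 150.1 and 143.3 CPM (-2.84 ± 1.4), Jag1 at 12.7 and 18 CPM against 117.4 and 54.6 CPM (-2.33 ± 1.10) and Notch4 at 19 and 17.1 CPM against 102.1 and 107.6 CPM (-2.48 ± 0.16). Notch1 was at 59.2 and 119.6 CPM against 173.5 and 190.3 CPM (-1.10 ± 0.62) and was not counted. Notch2 was the higher one, at 83.1 and 50.4 CPM against 9.90 and 7.82 CPM (2.75 ± 0.29).

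Jag1 was highest in cluster 4, at 750.2 and 275.4 CPM, and its level there was above that in cluster 2 in both batches (log2 ratio of cluster 2 over 4, -5.77 and -3.86). In clusters 1, 3 and 5 Jag1 had means of 13.7, 17 and 12.5 CPM, near the 15.4 CPM of cluster 2, and in the GFI1+ IAHC gate at E11.5 in GL78 the ratio was 0.02. Of the Notch targets, Hey2, a repressor of arterial endothelium, was at 0 and 1.51 CPM against 211.5 and 63.4 CPM in cluster 4. Hey1 was at 18.9 and 50.8 CPM, Hes1 at 62.3 and 44.9 CPM, and neither was counted against the comparison cells. Gata2, a regulator of HSC formation, was the target counted as higher (1.71 ± 0.71), although reads were present in fewer cells (67.9% against 75.9%), the median at E11.5 was 0 CPM and the highest cell of cluster 2 was at 6316 CPM. At E10.5 the median of Gata2 in cluster 2 was 123.4 CPM with reads in 88.7% of the cells. The median over all comparison cells was 46.4 CPM. Rfng, a fringe enzyme that adds sugars to Notch, was at 35 and 41.8 CPM against 18 and 16.6 CPM (1.10 ± 0.25) and was not counted, since its ratio did not reach 2-fold in both batches. Within the GFI1+ IAHC gate its ratio was above 2-fold in all 3 strata, at 1.155 (E10.5, GL78), 1.10 (E11.5, GL53) and 1.176 (E11.5, GL78). Reads of Rfng were present in 59.6% of the cells of cluster 2 and 29.9% of the comparison cells. Mfng (-0.52 ± 0.32) and Lfng (-0.23 ± 0.42) were near the median of all genes.

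**Figure D3:**
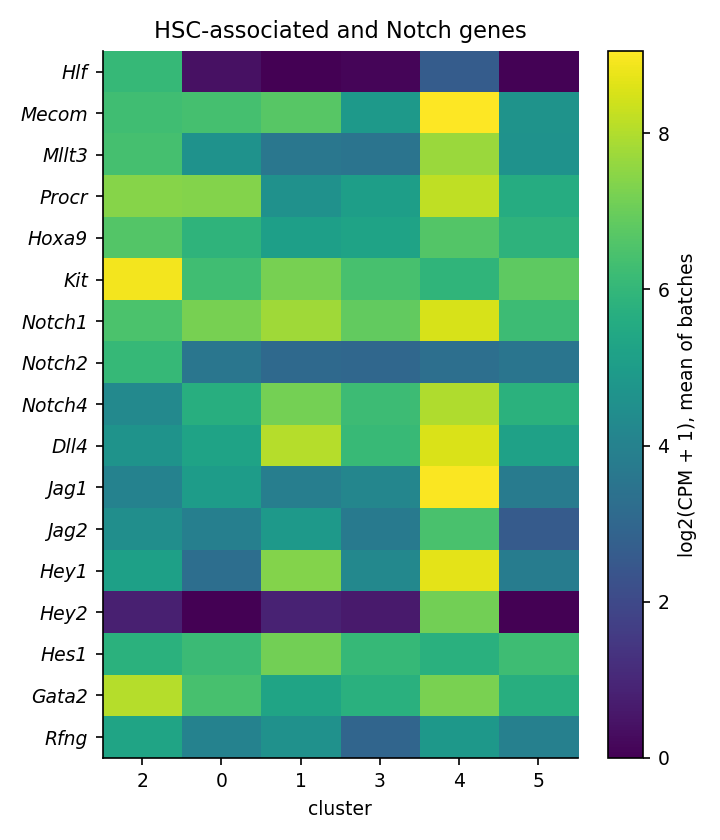
Level of 6 HSC-associated genes and 11 Notch genes in cluster 2 and the comparison clusters, as log2 of CPM plus 1, mean of the batches. Hlf, Kit and Notch2 were highest in cluster 2 (means of 65.3, 480.2 and 66.7 CPM), and Mecom, Jag1, Hey1 and Hey2 in cluster 4.

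Index-sort fluorescence was not used to form the clusters, although CD31, cKIT and the GFI1 reporter set the gates. Values were available for 100 of the cells. In all, 28 of the 775 cells carried 9 values identical to those of another cell, 0 of them in cluster 2 and 2 among the GFI1+ IAHC comparison cells. Signals were compared within the GFI1+ IAHC gate in each stage and batch with at least 10 cells a side, as medians and as the share of cell pairs in which the cell of cluster 2 was the brighter one.

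CD45, the pan-leukocyte antigen, was at a median of 9619 in E11.5 cells of GL53 and 19093 in E11.5 cells of GL78, against 955 and 949 in the comparison cells. At E10.5 it was at 826 against 596. The cell of cluster 2 was brighter in 95.6% of pairs at E11.5 in GL53, in all pairs at E11.5 in GL78 and in 66.9% at E10.5, and in GL78 the E11.5 groups did not overlap, with a lowest value of 2765 in cluster 2 and a highest of 2694 in the comparison. NOTCH1 was lower in all 3 strata, at 508, 417 and 469 against 1340, 892 and 975, and its cells were brighter in 2.20%, 14.5% and 10.4% of pairs. Notch1 RNA in the same gate was lower at E10.5 (64.4 against 150.7 CPM) and at E11.5 in GL53 (62.9 against 118.7 CPM) but not at E11.5 in GL78 (243.6 against 146.5 CPM).

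CD31 was lower, at 8372 against 53940 and 4077 against 40565 at E11.5 and at 19540 against 32460 at E10.5. JAG1 was brighter in cluster 2 in 22.4%, 4.48% and 28.5% of pairs, and DLL4 in 13.6%, 9.07% and 32.8%, where the DLL4 medians of both sides were below 0 in both E11.5 strata (-226 against -38.6 and -339 against -40.2). In the opposite direction cKIT was brighter in 77.3%, 86.7% and 86.5% of pairs. The GFI1 reporter was at 1537 against 436 at E10.5 and at 1053 against 766 and 854 against 643 at E11.5, and CD41, the integrin that Itga2b encodes, was at 1330 against 563 at E10.5, at 1404 against 834 at E11.5 in GL53 and at 854 against 805 at E11.5 in GL78, where 55.3% of pairs had the brighter cell in cluster 2. NOTCH2 protein was lower in cluster 2 in all 3 strata (31.2%, 27.1% and 39% of pairs) although its RNA was higher, and all 6 medians were below 0.

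**Figure D4:**
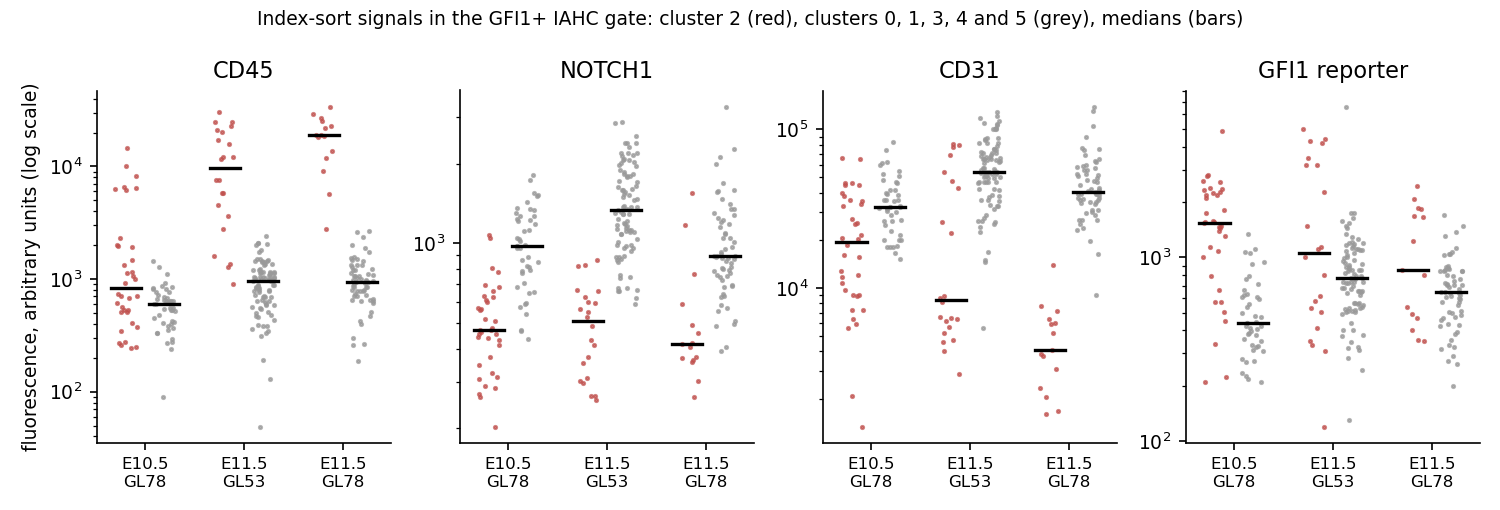
Fluorescence (arbitrary units, log axis) of CD45, NOTCH1, CD31 and the GFI1 reporter in GFI1+ IAHC cells, by stage and batch, with 1 point per cell (red, cluster 2; grey, clusters 0, 1, 3, 4 and 5) and bars for medians. CD45 in cluster 2 separates from the comparison at E11.5 in GL78 but overlaps with it at E11.5 in GL53 and at E10.5, and NOTCH1 lies lower in all 3 strata.

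CD45 signal and Ptprc RNA were set side by side in the cells of cluster 2. In the 45 E10.5 cells of GL78, the 20 with Ptprc reads had a median CD45 signal of 1979 and the 25 without had 411, and the rank correlation was 0.76 over these cells, which share their batch and stage. It was 0.755 over the 27 E11.5 cells of GL53 and 0.30 over the 23 E11.5 cells of GL78, of which 22 had reads. For the reporter and Gfi1 RNA it was 0.74 over the 27 E11.5 cells of GL53, 0.44 over the 23 of GL78 and 0.27 over the 45 E10.5 cells of GL78. All of these correlations pooled cells of different sort gates, which the reporter helped to set. The part of the gates in them was not tested.

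Cluster 2 was not uniform, and the genes in this and the next paragraphs were chosen after their values were seen. To compare shares of cells, each cell was thinned to 50000 counts. Ptprc, which encodes CD45, had reads in 22 of 53 E10.5 cells (41.5%, interval 28.1 to 55.9% by the exact binomial method) and in 50 of 56 E11.5 cells (89.3%). Rac2 went from 45.3% to 96.4%, Flt3 from 13.2% to 53.6% and Cd69 from 22.6% to 67.9%. Cdh5 had reads in 67.9% of the E10.5 and 16.1% of the E11.5 cells, Mecom in 67.9% and 17.9%, Hoxa9 in 71.7% and 35.7% and Gfi1 in 54.7% and 16.1%. Runx1 (all E10.5 cells and 89.3% of the E11.5 cells), Spi1 (88.7% and 92.9%) and Coro1a (94.3% and all E11.5 cells) were common at both stages. For comparison, Ptprc had reads in 0.362% and Cdh5 in 99.5% of the 552 comparison cells.

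Stages were also compared in 1 gate and 1 batch. In GFI1+ IAHC cells of GL78, where 15 E11.5 and 36 E10.5 cells of cluster 2 were set against each other, the leukocyte list had a median log2 ratio of 2.29 (E11.5 over E10.5), the pan-endothelial list -3.17, the collagen list -4.01 and all genes 0.00. Cd69 was at 932.2 against 14.8 CPM and Ptprc at 409.2 against 46.5 CPM, while Cdh5, Vwf and Cldn5 had no counts at E11.5 and were at 166.1, 329.5 and 219.3 CPM at E10.5. Mecom was at 27.9 against 90.1 CPM. Hlf (37.4 against 48 CPM) and Hoxa9 (112.3 against 108.8 CPM) were nearly level. The immediate early genes had a median of 2.83.

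The E11.5 GFI1+ IAHC cells of cluster 2 are given by batch, without a test, since each batch is 1 group of cells. In GL53 reads were present in 40.9% of 22 cells for Cdh5, 63.6% for Hlf and 36.4% for Mecom, and in GL78 in 0, 3 and 2 of 15 cells, respectively, where the exact upper bound for Cdh5 was 21.8%.

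The other gates held few cells of cluster 2. The 10 E11.5 GFI1- IAHC cells all had Ptprc, 9 of them had Trbc2, a T cell receptor constant gene, and none had Cdh5 or Gfi1 (exact upper bound 30.9%). Of these cells 7 were from GL78, where no E11.5 GFI1+ IAHC cell had Cdh5 either, so gate and batch cannot be told apart for Cdh5, and the gate itself excluded the reporter. Trbc2 was not limited to this gate. In GFI1+ IAHC cells of cluster 2 in GL78 it was at 454.7 CPM at E11.5 and 4.58 CPM at E10.5. The 7 E11.5 GFI1+ HE cells all had Mpo, 5 of them had Csf1r, the macrophage colony factor receptor, and none had Cdh5, Kdr or Gfi1 (exact upper bound 41%), and their median CD45 signal was 23740 over 6 cells with values. The 11 E10.5 GFI1+ HE cells had Cdh5 in 81.8% and Ptprc in 36.4%.

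Pan-endothelial and leukocyte transcripts were summed in each cell. The pan-endothelial sum had a median of 3675 CPM in E10.5 and 482 CPM in E11.5 cells of cluster 2, against 15675 CPM in the comparison, and the leukocyte sum a median of 3494 and 13472 CPM against 727 CPM. The 5th percentile of the pan-endothelial sum in the comparison cells was 9418 CPM, and 5 cells of cluster 2, all E10.5, were above it. Clusters 9 and 10 were not part of the comparison. Their cells had leukocyte sums of 5288 to 20480 CPM and 7657 to 19130 CPM, within the range of cluster 2 (898 to 29042 CPM). The leukocyte sum was above the 95th percentile of the comparison cells (1518 CPM) in 100 cells of cluster 2, 44 of them E10.5 and 56 E11.5. It therefore set most cells of cluster 2 apart from most comparison cells, with some overlap, but not from clusters 9 and 10.

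**Figure D5:**
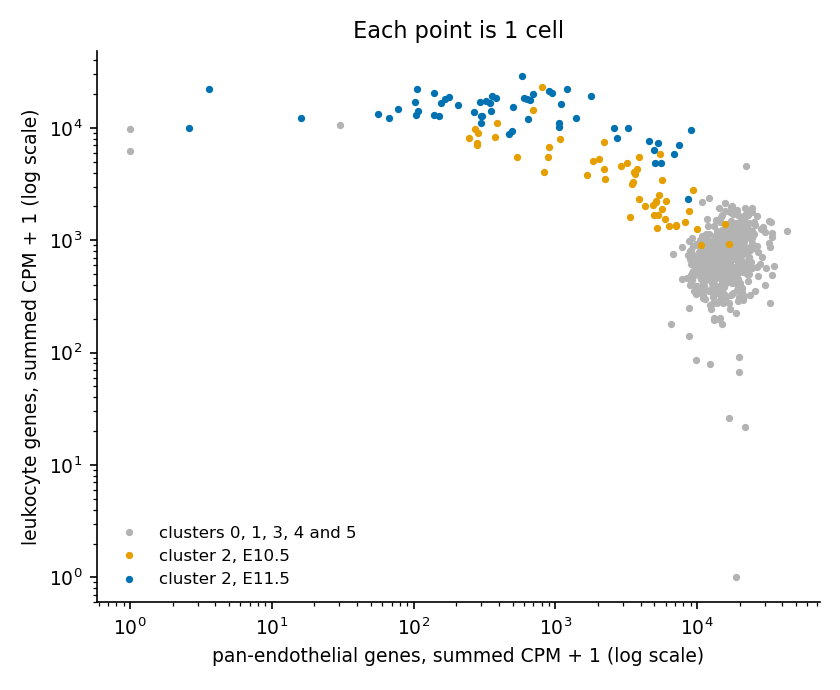
Summed CPM plus 1 of the 22 pan-endothelial genes (horizontal) against the 40 leukocyte genes (vertical), both on log axes, 1 point per cell. E10.5 cells of cluster 2 (orange) spread between the comparison cells (grey) and the E11.5 cells (blue), whose median leukocyte sum was 13472 CPM.

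Some cells carried genes of both programmes or of several lineages. Spi1 and Cdh5 were detected together in 40 cells of cluster 2 (36.7%, exact interval 27.7 to 46.5%) and in 3 of 552 comparison cells. Ptprc and Cdh5 were detected together in 12 cells (exact interval 5.82 to 18.4%), and in 22 at full depth. Hlf and Mecom were detected together in 38 cells, and Mpo and Flt3 in 24. Of 6 genes of different lineages or stem cells (Mpo, Il7r, Cpa3, Csf1r, Flt3 and Hlf), 29 cells had 3 or more at the thinned depth and 6 cells had none, while 521 of 552 comparison cells had none. Cells with Hlf and Mpo together were deeper before thinning (median 845700 against 637500 counts), and the part of depth in such pairs was not tested.

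Cell cycle genes differed little. Of 20 genes each of S phase and mitosis, 0 were counted in either direction (medians 0.46 and 0.17), but Cyclone calls in the annotation placed 19 cells in S phase (17.4%, exact interval 10.8 to 25.9%) against 41 of 552 (7.43%, 5.38 to 9.94%). These shares were pooled over batches and stages. The S phase share was 20.75% at E10.5 and 14.29% at E11.5 in cluster 2, and 1.32% in cluster 4. The part of stage and batch in the difference was not tested. Cdkn1a (3.54 ± 1.39), a brake on the cycle, and Cdk6 (2.26 ± 0.52) were higher and Ccnd1 (-3.35 ± 0.73) was lower. Ccnd1 was low in cluster 4 too, at 4.26 and 27.8 CPM, beside 19.8 and 14.4 CPM in cluster 2. Ribosomal protein and oxidative phosphorylation genes had medians of 0.24 and -0.06, with 0 counted. Glycolysis had a median of -0.19, in which the glucose transporter Slc2a3 (2.52 ± 0.82) and Hk2 (2.44 ± 1.13) were higher and Slc2a1 (-1.75 ± 0.84) lower. Of 11 MHC class I and immunoproteasome genes 5 were higher (median 1.85), led by the immunoproteasome subunits Psmb8 (5.50 ± 1.30) and Psmb9 (4.10 ± 0.86).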

How the data were processed

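Single-cell RNA was sequenced by Smart-Seq2, a plate method in which 1 cell is 1 library without molecular identifiers, in 860 cells, of which 775 carry a Louvain cluster in the annotation. The authors mapped reads to mm10 with STAR 2.7.3 and counted them with HTSeq 0.9.1, per the paper's methods and the submitters' processing notes, and the deposited values are raw counts per gene. The authors regressed out depth, mitochondrial share and cell cycle before clustering and made no batch correction. The deposited annotation also gives index-sort intensity for 9 signals, in arbitrary units, and the mitochondrial fraction of each cell. A deposited table of normalized values was not used. The members and gene lists were chosen with earlier results of these data known.

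Rows without a gene symbol held 0.0682% of counts. Counts were summed over the cells of cluster 2 and of clusters 0, 1, 3, 4 and 5 in each batch, scaled to CPM, and compared as log2 of CPM plus a pseudocount of 1, with batches weighted equally. Batches with under 10 cells on a side were left out (GL58 and GL69). Genes were named by a fixed rule: the 14 highest and 12 lowest by the smaller of the 2 batch ratios, the markers, HSC and Notch genes and a few receptors whatever their values, and the 2 highest and 2 lowest members of each list. Genes named outside this rule, among them Myb, Elane, C1qa, Timd4 and Wt1, were chosen after their values were seen. Gene identifiers were matched to symbols for 45143 of 46078 genes. Total counts per cell ran from 381866 to 1872895 in cluster 2. Poisson, binomial and ratio intervals are exact, at 95%. Shares of cells were taken after thinning to 50000 counts with seed 7. The contrast was tested on simulated data. Python 3.11.15, NumPy 2.4.6, pandas 2.3.3 and SciPy 1.17.1 were used. Alternatives were another unit of summing, pseudocounts, size factors, strata, gate, comparison set, depth and filters. A gene withheld from this text is not reported here by name.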

Additional observations from a re-analysis of the deposited data

Results flagged for a closer look

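In the GFI1+ IAHC gate, Hbb-y, an embryonic beta-globin gene, had a log2 ratio of 1.15 at E10.5 (15 against 6.22 CPM) and of -6.17 and -3.04 at E11.5 (no counts in cluster 2 in either batch). It was picked out because its direction at E10.5 was opposite to that in both E11.5 strata, each by at least 2-fold, and the difference between the stages was not tested. Reads of Hbb-y were present in 8 cells of cluster 2.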

How the results depend on the processing

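No paired analysis was possible because replicate numbers only name single cells and no test was made between groups; both sides were compared within each batch. The share of tested genes counted as higher and lower was 7.48% and 9.92% (681 and 903 genes), and the number of such genes moved by over 1.5 times in both directions without a filter on level or detection (3.09% and 3.38% of 46078 genes, that is 1425 and 1558), at 4-fold (3.37% and 4.28% of 9099) and without batch GL78 (15.5% and 15% of 9685). The higher count alone did so within batch and stage (4.52%, 386 genes), with batches of at least 5 cells a side (4.66%, 395 genes) and in the E10.5 GFI1+ IAHC gate (11.48%, 1084 genes). The leukocyte median was 6.05 and 4.11 with pseudocounts of 0.1 and 5 CPM and 4.30 against all other kept cells. It was 4.05 in E10.5 cells, and 4.27 and 6.07 in the GFI1+ IAHC gate at E10.5 and E11.5. The HSC-associated median ran low with mean single-cell CPM (0.59), size factors (0.60), equal weight of clusters (0.63), thinning (0.55) and E11.5 cells (0.48), and high against all other kept cells (0.90), without GL53 (0.86), in E10.5 cells (1.02) and in the GFI1+ IAHC gate (1.29; 1.54 at E10.5 and 1.27 at E11.5). The pan-endothelial median was -3.51 within batch and stage, -1.58 and -4.23 in E10.5 and E11.5 cells, and -1.61 and -3.58 in the GFI1+ IAHC gate. The Notch receptor and ligand median was -0.87 in that gate (-0.37 at E11.5), -1.11 without GL53, -1.74 with at least 5 cells a side and -1.10 over every member. The megakaryocyte median turned to -2.88 against all other kept cells and to -0.12 over every member. The lymphoid median turned to -0.63 in E10.5 cells and -0.42 in the E10.5 GFI1+ IAHC gate, where the erythroid and neural medians turned to 0.94 and 1.37. The share of pairs with brighter NOTCH1 was 16.2% over all gates and 2.20% without GL78, and with brighter CD45 was 66.9% at E10.5. Ptprc and Cdh5 were found together in 20.2% of cells without thinning and in 5.50% with 5 or more reads. The alternatives by stage, and those leaving out single cells, were chosen after seeing the data, and the cause of these moves was not tested. The limits are that cells are not replicates, cluster 2 rests on 2 batches, GL53 holds no E10.5 cells of it, and the clusters were built from the same RNA.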
